A study of Homo sapiens with 6 samples.

Results

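The genes described here encode the proteins that write, read and remove methyl groups on cytosine in DNA. They were chosen by name, and all 10 were found, each with 1 probe set, among the 24241 genes measured: DNMT1, DNMT3A, DNMT3B, UHRF1, UHRF2, TET1, TET2, TET3, HELLS and TDG. Their transcripts were measured in HepG2, an established human liver cancer line, on 6 Affymetrix arrays. Cells on 3 arrays had received verteporfin at 0.75 µM and cells on the other 3 its solvent DMSO, and RNA was taken after 24 hours in every case. Verteporfin is a porphyrin photosensitiser that is also described as a disruptor of the YAP-TEAD complex. All samples shared the line and its culture in RPMI, no genetic change is named, and whether the replicates were separate cultures is not stated, so the spread between them may be technical. DNA methylation itself was not analysed here, and the values describe transcripts only.

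DNA methylation is copied after each round of replication. UHRF1 recognises DNA that is methylated on the parental strand alone and recruits DNMT1, which methylates the new strand, while the chromatin remodeller HELLS is needed for normal methylation of repeats and silent chromatin. DNMT3A and DNMT3B place methyl groups on unmethylated DNA. TET1, TET2 and TET3 oxidise methylcytosine, and the glycosylase TDG cuts out the most oxidised forms, which base excision repair then replaces with cytosine.

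After verteporfin the genes for copying methylation were lower, and those for removing it moved both ways. No test compared these classes. UHRF1, HELLS and DNMT1 fell, by 3.44-fold, 3.56-fold and 1.64-fold. Among the erasers TET1 fell by 4.04-fold, whereas TET2, TET3 and TDG rose by 1.36-fold, 1.27-fold and 1.84-fold. DNMT3A fell by 1.32-fold, and DNMT3B and UHRF2 did not pass the test. In all, 5 of the 10 genes were lower and 3 higher at an adjusted p under 0.05 (limma, Benjamini-Hochberg over all genes). Of all genes measured, 28.5% passed that threshold, 14.3% lower and 14.3% higher. All 10 genes had a DMSO mean above the median signal of 4.83, and of all genes at or above it 51.8% passed. The groups did not overlap for 8 of the 10 genes, and for 39.1% of all genes. These shares are the background for the counts, and no statement that the group as a whole stands apart is drawn from them. The median log2 difference of the 10 genes was -0.20, against 0.0049 over all genes.

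**Figure D1:**
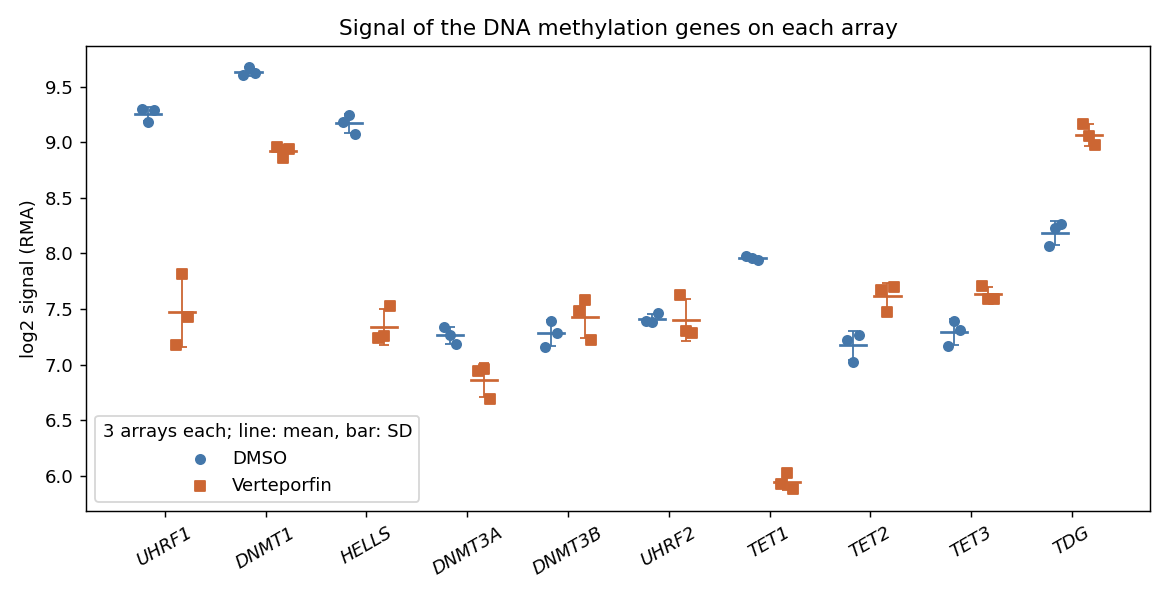
Log2 signal of each gene (vertical axis, RMA) on the 3 DMSO arrays (circles) and the 3 verteporfin arrays (squares), with group mean (line) and SD (bar). TET1, HELLS and UHRF1 show the widest gaps downward and TDG the widest gap upward, and DNMT3B and UHRF2 overlap between groups. Levels of different genes are not comparable, since each probe set has its own response.

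The promoters of 6 of the genes are shown first, chosen with the results known. UHRF1, DNMT1 and HELLS fell and held a word of the motif described below. TET1, which fell and held no such word in the window searched, UHRF2 and TDG are set beside them. Whether the motif has a part in any change was not tested. Each promoter runs 5′ to 3′ from 150 bases before the annotated start to 25 bases after it, from RefSeq on GRCh38.p14. Capitals mark matches to 4 words of the binding motif of E2F factors, which drive S phase genes: TTTCCCGC, TTTCGCGC, TTTGCCGC and TTTGGCGC, searched on both strands, with overlapping matches counted separately.
UHRF1, chr19:4909351-4909525, plus strand: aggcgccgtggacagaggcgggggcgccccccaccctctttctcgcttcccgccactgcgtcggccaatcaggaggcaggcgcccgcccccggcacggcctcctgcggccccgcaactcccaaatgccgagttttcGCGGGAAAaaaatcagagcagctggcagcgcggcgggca
DNMT1, chr19:10194929-10195103, minus strand: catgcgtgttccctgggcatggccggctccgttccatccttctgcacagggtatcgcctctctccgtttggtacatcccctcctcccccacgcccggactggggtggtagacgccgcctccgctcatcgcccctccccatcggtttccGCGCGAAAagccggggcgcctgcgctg
HELLS, chr10:94545638-94545812, plus strand: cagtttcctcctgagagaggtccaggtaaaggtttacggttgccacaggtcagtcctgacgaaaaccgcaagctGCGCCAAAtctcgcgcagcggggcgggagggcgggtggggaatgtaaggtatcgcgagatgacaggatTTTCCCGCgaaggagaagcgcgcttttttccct
TET1, chr10:68560187-68560361, plus strand: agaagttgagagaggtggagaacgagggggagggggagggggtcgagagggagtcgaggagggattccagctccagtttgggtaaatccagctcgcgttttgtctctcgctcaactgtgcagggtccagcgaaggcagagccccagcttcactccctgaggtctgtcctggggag
UHRF2, chr9:6413049-6413223, plus strand: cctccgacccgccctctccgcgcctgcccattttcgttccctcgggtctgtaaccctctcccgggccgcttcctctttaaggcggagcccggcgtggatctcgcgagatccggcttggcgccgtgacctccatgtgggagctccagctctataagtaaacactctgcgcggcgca
TDG, chr12:103965722-103965896, plus strand: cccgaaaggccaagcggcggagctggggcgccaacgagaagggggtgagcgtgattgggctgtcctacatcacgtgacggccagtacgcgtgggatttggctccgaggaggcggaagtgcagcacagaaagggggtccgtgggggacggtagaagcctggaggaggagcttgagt

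UHRF1, DNMT1 and HELLS, which act with replication, each held an E2F word close to the start. In UHRF1 it covered bases 14 to 7 before the start, and in DNMT1 it ran from base 2 before the start to base 6 of the transcript. HELLS held 1 word at bases 8 to 1 and another at bases 76 to 69 before the start. No word was found for the other 7 genes within 250 bases before and 50 after the start used, TET1 and DNMT3A among them. This says only that these letters are not in that window. Only the most upstream window of each gene was searched. There were 3 listed for TET1 and for UHRF1, 6 for DNMT3A, and 2 for TET2 and for TET3. The words were present in the windows of 3.34% of 27303 genes, and in those of 13 of the 19 S phase genes for which a window was given. The CCAAT word was found in the windows of UHRF1, HELLS, TDG and DNMT3B, and in those of 35.7% of all genes.

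The 10 windows differed widely in CG dinucleotides, the sites that these enzymes act on. DNMT3B held 3 in its 300 bases, TET1 10, TET2 13 and DNMT3A 18. HELLS and TDG held 22 each, UHRF2 26, DNMT1 30, UHRF1 36 and TET3 45. The median over all genes was 13. The window of each gene is the most upstream one listed, and it need not lie at the gene's main start. UHRF1 has a further annotated start outside the listed windows. DNMT3B had only 1 window listed, and whether that is its main promoter was not checked, so its low count describes that window alone. The array's probe positions are not known here. A match is a description of the letters and not of a site in use.

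UHRF1, the reader of half-methylated DNA (Entrez gene 29128, which also names its probe set), gave log2 signals of 9.30, 9.18 and 9.29 in DMSO. With verteporfin they were 7.18, 7.81 and 7.43. The DMSO arrays lay close together, and every verteporfin array lay far below them, with the second highest of the 3. The log2 difference was -1.78 ± 0.15 (SE, with n = 3 arrays in each group throughout; limma adjusted p = 6.58e-05). The SD was 0.318 in verteporfin against 0.0628 in DMSO, the widest spread within a group among the 10 genes.

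HELLS, the remodelling ATPase also called LSH (Entrez 3070), gave 9.19, 9.25 and 9.08 in DMSO and 7.24, 7.26 and 7.53 with verteporfin. Its groups were far apart, and the third verteporfin array was the highest of its group. The difference was -1.83 ± 0.09 on the log2 scale (limma adjusted p = 8.09e-06). HELLS and UHRF1 were thus close in size of fall, and both were among the 3.01% of all genes that passed and were at least 2-fold lower.

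DNMT1, the maintenance methyltransferase (Entrez 1786), gave 9.60, 9.68 and 9.63 in DMSO and 8.96, 8.86 and 8.94 with verteporfin. The arrays of each group lay within 0.102 of each other, and the groups were separated by 0.641. The log2 difference of DNMT1 was -0.72 ± 0.06 (limma adjusted p = 8.13e-05), with a 95% interval of -0.86 to -0.57. The whole of that interval lies above the intervals of UHRF1 (-2.12 to -1.44) or HELLS (-2.05 to -1.61). The test of these differences between genes was not made.

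Of the enzymes that methylate new sites, DNMT3A (Entrez 1788) gave 7.34, 7.26 and 7.18 in DMSO and 6.94, 6.96 and 6.69 with verteporfin. The groups did not overlap, but the gap of 0.219 was small, and the difference was -0.40 ± 0.09 (limma adjusted p = 0.0122). That call was lost on leaving out DMSO replicate 1 (adjusted p = 0.0507) or replicate 1 of both groups (0.0697), and with arrays centred on reference genes (0.103), so the fall of DNMT3A is the least firm of the 5.
DNMT3B (Entrez 1789), its close relative, gave 7.16, 7.40 and 7.29 in DMSO and 7.48, 7.58 and 7.22 with verteporfin. The groups overlapped, and the difference was 0.15 ± 0.11 (limma adjusted p = 0.422). Its 95% interval of -0.10 to 0.40 leaves room for a small rise.

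UHRF2, the relative of UHRF1 with the same domain plan (Entrez 115426), gave 7.39, 7.39 and 7.46 in DMSO and 7.62, 7.30 and 7.29 with verteporfin. The first verteporfin array was above all DMSO arrays and the other 2 below them. The difference was -0.01 ± 0.10 (limma adjusted p = 0.962), with a 95% interval of -0.24 to 0.22, and its sign turned in 6 of the 17 other ways of fitting the data. A fall of the size seen in UHRF1 lies outside that interval.

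TET1, the first of the dioxygenases (Entrez 80312), gave 7.97, 7.96 and 7.94 in DMSO and 5.93, 6.02 and 5.88 with verteporfin. The 3 DMSO arrays were nearly equal, and all verteporfin arrays lay at least 1.92 below them. The log2 difference was -2.01 ± 0.06 (limma adjusted p = 1.51e-06), the largest fall among the 10 genes and the 138th lowest of all 24241. The verteporfin mean of TET1, 5.94, stayed above the median signal of 4.83.

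TET2 (Entrez 54790), an enzyme of the same reaction without the CXXC DNA-binding domain of TET1, gave 7.23, 7.03 and 7.26 in DMSO and 7.67, 7.48 and 7.70 with verteporfin. TET3 (Entrez 200424), known for oxidising methylcytosine in the fertilised egg, gave 7.17, 7.39 and 7.32 in DMSO and 7.71, 7.59 and 7.59 with verteporfin. For both genes all verteporfin arrays were the higher ones, with gaps of 0.213 and 0.199. TET2 rose by 0.44 ± 0.09 (limma adjusted p = 0.00773) and TET3 by 0.34 ± 0.08 (limma adjusted p = 0.0128). Leaving out replicate 1 of both groups ended both calls (0.0620 and 0.109), and so did leaving out replicate 3 of both groups (0.0523 and 0.0795).

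TDG, the glycosylase that completes removal (Entrez 6996), gave 8.06, 8.23 and 8.26 in DMSO and 9.17, 9.06 and 8.98 with verteporfin. Every verteporfin array lay at least 0.715 above the DMSO arrays. The difference of 0.88 ± 0.08 (limma adjusted p = 0.000114) was the largest rise among the 10 genes.

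**Figure D2:**
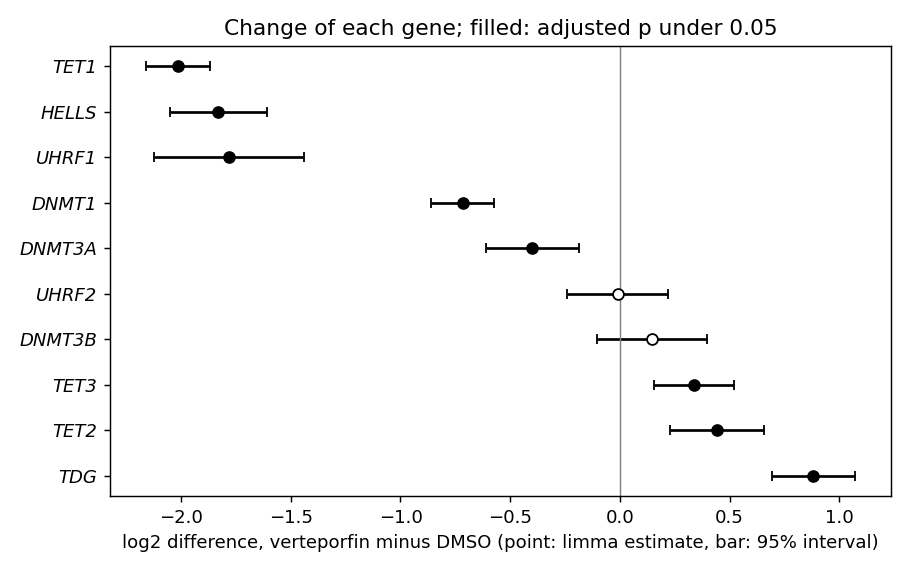
Log2 difference of each gene between verteporfin and DMSO (horizontal axis) with its 95% interval from limma; filled points passed an adjusted p of 0.05. TET1, HELLS and UHRF1 lie between -2.01 and -1.78, DNMT1 at -0.72, and TDG at 0.88, and the intervals of UHRF2 and DNMT3B cross 0.

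Relatives within the same enzyme family were then compared on each array by the difference of their log2 signals. A constant offset of a probe set cancels in the change between groups. The changes in ratio below still assume that both probe sets respond equally to a given change. TET1 minus TET2 was 0.786 ± 0.133 in DMSO and -1.67 ± 0.193 with verteporfin (mean ± SD), so the ratio fell by 5.50-fold. TET1 minus TET3 changed by -2.35 ± 0.10 (SE), a 5.11-fold fall in ratio. TET1 thus departed from both relatives, while TET2 minus TET3 changed by only 0.10 ± 0.14, with overlapping arrays.
UHRF1 minus UHRF2 changed by -1.77 ± 0.28, a 3.42-fold fall in ratio. DNMT3A minus DNMT3B changed by -0.54 ± 0.10, a 1.46-fold fall. The arrays of the 2 groups did not overlap in 4 of the 5 pairs. For these the two-sided exact permutation p was 0.1, the smallest that 3 against 3 arrays allow, and 0.125 after adjustment over the 5 pairs, so none could pass; for TET2 and TET3 it was 0.6. The unequal change within families is therefore given as a measured difference that this design cannot bring to the threshold by such a test.

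**Figure D3:**
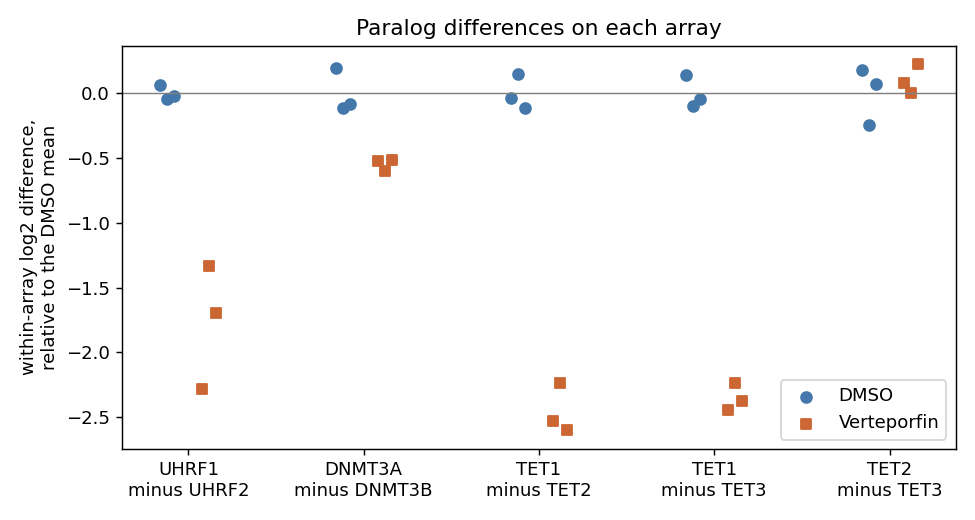
Within-array difference in log2 signal between relatives, relative to its mean in DMSO (vertical axis), for each array. The verteporfin arrays lie below all DMSO arrays for every pair other than TET2 minus TET3.

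Transcripts of proteins that work with the copying enzymes were also measured. Of 21 partner genes, 11 were lower and 0 higher (limma, with 16 and 0 at an unadjusted p under 0.05). Their median log2 difference was -0.28. Over all genes the shares were 14.3% each way. Of the 21, 19 had a DMSO mean at or above the median signal, where 26.4% of genes were lower and 25.3% higher, 51.8% in all. With arrays centred on reference genes 9 of the 21 were lower and 0 higher (limma), with a median of -0.12. PCLAF, a PCNA-binding protein that helps bring DNMT1 to new DNA, was at -2.11 ± 0.08, and PCNA, the replication clamp, at -1.39 ± 0.08. CDCA7, the zinc finger protein that brings HELLS to chromatin, was at -1.97 ± 0.11 (limma adjusted p = 1.28e-05). CDCA7 and HELLS are genes of the same inherited syndrome, ICF, as are DNMT3B and ZBTB24.
ZBTB24, a transcription factor, was at -0.21 ± 0.07 and did not pass (limma adjusted p = 0.0586), although it passed in 3 of 17 other fits. On the arrays CDCA7 gave 8.47, 8.51 and 8.42 in DMSO and 6.24, 6.65 and 6.62 with verteporfin. USP7, the deubiquitinase that stabilises UHRF1 and DNMT1, was at -0.20 ± 0.06 (limma adjusted p = 0.0377), a call lost in 11 of 17 other fits. DNMT3L, the cofactor of DNMT3A in germ cells, had a mean of 3.93 in DMSO and 3.90 with verteporfin, below the median signal.

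Replication genes changed in the same samples. Of 22 S phase genes 17 were lower and 1 higher, with a median of -1.03. The lists share some genes. PCNA is counted here and among the partners, and FEN1 here and in base excision repair. MBD4 is counted in base excision repair and among the other readers. All 22 had a DMSO mean at or above the median signal, where 26.4% of genes were lower and 25.3% higher. GINS2 (-1.60 ± 0.06), MCM2 (-1.83 ± 0.08) and MCM6 (-1.63 ± 0.07), parts of the replicative helicase, had the smallest adjusted p. The falls of UHRF1 and HELLS were of the size of these, and that of DNMT1 was smaller than the list's median. E2F1, a factor that binds the words shown above, was at -0.15 ± 0.08 (limma adjusted p = 0.218). CDC6, the 1 higher gene of the list and given after its value was seen, rose by 1.09 ± 0.10 (limma adjusted p = 0.000119). In bulk RNA fewer cells in S phase and less transcript per cell cannot be told apart, and the part of the S phase genes in the change of UHRF1, HELLS and DNMT1 was not tested.

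Genes with the pattern most like DNMT1 over the 6 arrays, by Euclidean distance of values centred on their mean, were POLQ, MALSU1, C2CD5, RPS27L and TMEM245. Their distances were 0.0668 to 0.0848, and their log2 differences -0.74 to -0.67. Those most like UHRF1 were DUSP9, MYORG, HSD17B2, CCN2 and ALDH1B1, at distances of 0.148 to 0.213 and with differences of -1.84 to -1.67. Likeness here rests on 2 groups and is a description.

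Of 9 genes measured for other readers of methylated DNA, 2 were higher and 1 lower, with a median of 0.18. All 9 had a DMSO mean at or above the median signal, where 51.8% of genes passed. With arrays centred on reference genes the counts were 5 higher and 0 lower (limma), with a median of 0.34. MBD1, a repressor with a methyl-CpG binding domain, rose by 0.92 ± 0.07 (limma adjusted p = 4.56e-05). MBD4, which pairs such a domain with a glycosylase that like TDG removes mismatched thymine, rose by 0.36 ± 0.07 (limma adjusted p = 0.00392), which no longer passed when replicate 1 of both groups was left out (0.0506). ZBTB33, the zinc finger reader Kaiso, fell by 0.42 ± 0.08 (limma adjusted p = 0.00549). It no longer passed with replicate 3 of both groups left out or with arrays centred on reference genes, with an adjusted p of up to 0.0603.

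Base excision repair acts after TDG or beside it. Of its 19 genes 8 were lower and 2 higher, with a median of -0.08, and all 19 had a DMSO mean above the median signal, where 51.8% of genes passed. With arrays centred on reference genes 5 were lower and 3 higher and the median was 0.09, and over the 17 other fits the higher count ranged from 0 to 3. The uracil glycosylase UNG was at -1.68 ± 0.10, the strand-break sensor PARP1 at -0.68 ± 0.06 and the glycosylase NEIL3 at -0.57 ± 0.07. TDG and MBD4, the glycosylases that act on thymine mismatches, were both higher and UNG lower. The other glycosylases listed are given after their values were seen. NTHL1 was lower at -0.30 ± 0.07 (limma adjusted p = 0.0135), a call lost in 4 of 17 other fits. SMUG1, MPG, OGG1, MUTYH, NEIL1 and NEIL2 did not pass. A difference by substrate was not tested. The adjusted p of UNG, PARP1 and NEIL3 lay between 1.25e-05 and 0.000351 (limma).

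Of 13 TET partners and genes of cofactor supply 4 were higher and 5 lower, with a median of -0.10. Of these 13 genes 11 had a DMSO mean at or above the median signal, where 51.8% of genes passed. GADD45A and GADD45B, stress proteins that have been linked to demethylation, rose by 0.84 ± 0.06 and 1.73 ± 0.21. Their relative GADD45G, given after its value was seen, was at 0.01 ± 0.10 and did not pass (limma adjusted p = 0.962). Its means of 4.66 in DMSO and 4.67 with verteporfin lay below the median signal. IDH1, which makes the 2-oxoglutarate that TET enzymes use, fell by 0.61 ± 0.07. The adjusted p of GADD45A, GADD45B and IDH1 lay between 3.23e-05 and 0.000436 (limma). The other IDH genes listed are given after their values were seen. IDH2 (-0.56 ± 0.07) and IDH3B (-0.33 ± 0.08) were lower, and IDH3G (0.31 ± 0.06) and IDH3A (0.22 ± 0.06) higher. The calls of IDH3A, IDH3B and IDH3G were lost in 10, 7 and 1 of 17 other fits. OGT, a glycosyltransferase that binds TET proteins and was named as 1 of the 13, is given after its value was seen, at -0.05 ± 0.07 (limma adjusted p = 0.678).

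The methyl donor cycle supplies S-adenosylmethionine to the DNMT enzymes. Of its 13 genes 5 were lower and 2 higher, with a median of -0.14. Of the 13, 11 had a DMSO mean at or above the median signal, where 51.8% of genes passed. BHMT (-1.86 ± 0.11) and MTR (-0.86 ± 0.07), which remake methionine, fell, as did MAT1A (-2.09 ± 0.13), the liver form of the enzyme that makes the donor. BHMT2, 1 of the 2 higher genes and given after its value was seen, rose by 0.77 ± 0.09 (limma adjusted p = 0.000333). AHCY, which clears the product of methylation, fell by 0.86 ± 0.08. MAT2A, the form of the donor enzyme found outside adult liver, was at -0.20 ± 0.10 and did not pass (limma adjusted p = 0.186). The adjusted p of BHMT, MAT1A, MTR and AHCY lay between 1.37e-05 and 0.000103 (limma). MAT2B, the remaining lower gene and given after its value was seen, was at -0.31 ± 0.06 (limma adjusted p = 0.00425). Its call was lost in 2 of 17 other fits.

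Genes that are often controlled by DNA methylation were read as well. Of 14 germline genes, whose promoters are described as methylated in body cells, 0 were higher and 0 lower (limma; 0 and 0 at an unadjusted p under 0.05), and 13 lay below the median signal in both groups. TDRD1 was at 0.12 ± 0.07 and DAZL at -0.13 ± 0.07. In 1 of 17 other fits, with arrays centred on reference genes, 2 passed as higher. Of 19 imprinted genes 3 were higher and 6 lower, with a median of -0.03. A DMSO mean at or above the median signal was seen for 13 of the 19, and 51.8% of all such genes passed. PEG10 (-2.34 ± 0.11) fell, and GRB10 (1.69 ± 0.08) and PLAGL1 (1.76 ± 0.10) rose. Whether methylation at any of these genes changed was not tested.

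**Figure D4:**
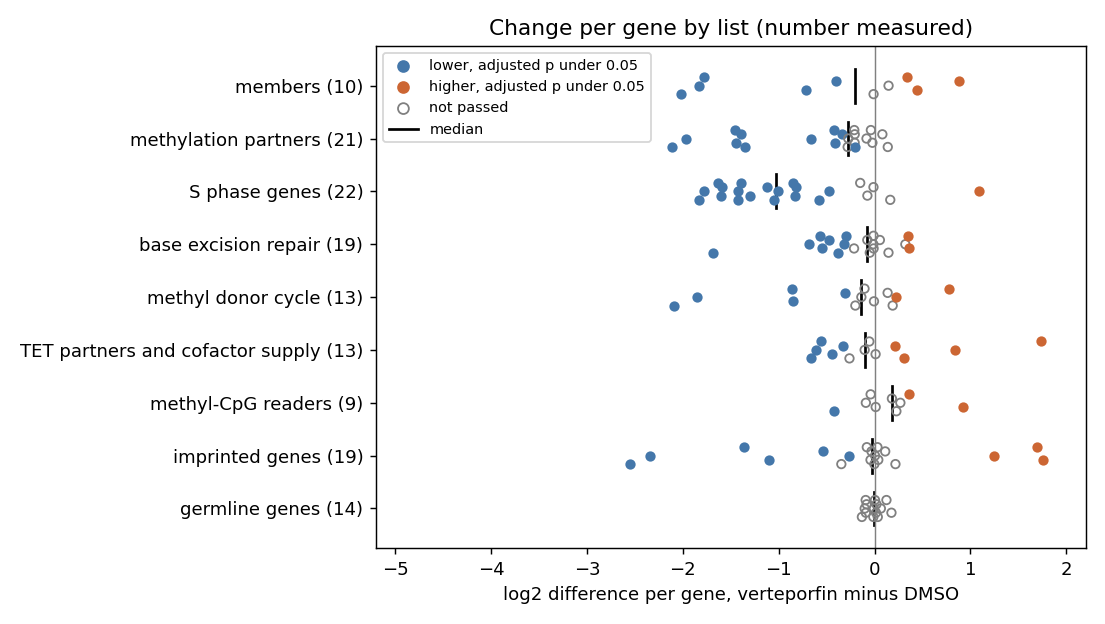
Log2 difference between verteporfin and DMSO (horizontal axis) of each gene, by list, with the number measured in brackets; "members" are the 10 genes of DNA methylation. Filled points passed an adjusted p of 0.05, and the black line is the median, which is lowest for the S phase genes at -1.03 and near 0 for the germline genes.

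Over all genes, correlations between arrays were 0.995 to 0.997 inside a group and 0.969 to 0.977 across the groups. The liver identity of the cells was clear from 7 hepatocyte markers, all above the median signal on every array, though 6 of them were lower with verteporfin and their mean log2 signal moved from 11.8 in DMSO to between 10.03 and 10.23. All 4 endothelial, 3 of 4 stromal and 2 of 3 leukocyte markers lay below the median signal on every array, with COL1A1 and CD68 above it. All arrays share the same distribution of values, so each change is relative to it. Centring on 8 reference genes moved the median of all genes from 0.0049 to 0.167 and the split of calls from 3460 higher and 3456 lower to 6588 and 2296; the reference genes themselves included 3 lower and 1 higher. Under that centring UHRF2 turned to 0.15, and none of the genes counted above as higher or lower turned its sign. The medians of the TET partners (0.06), the methyl donor cycle (0.02) and the imprinted genes (0.13) became positive under it, with 4, 3 and 5 genes higher and 3, 4 and 5 lower.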

How the data were processed

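Total RNA of HepG2 cells was labelled with biotin and hybridised to Affymetrix arrays, per the labels' protocols. The values deposited by the authors are log2 signals. According to the submitters' processing notes they come from RMA, which corrects background, equalises the distribution of the arrays and summarises probes. Its version, the array model and the build were not given in the sources. Values between 3.17 and 13.8 gave the log2 scale, and each array held the same set of values. No background level is known for dim probe sets, and 6 arrays limit the precision.

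Of 25582 probe sets, 24244 had 1 gene symbol in the platform annotation, 0 several and 1338 none. Where 3 symbols had several, the probe set with the highest mean was used. The test was lmFit and eBayes of limma 3.58.1 (R 4.3.3; no trend, not robust), two-sided, over all 24241 genes. SE is limma's moderated error, except for pairs of relatives, where it comes from the arrays' spread. The fit was tested on simulated data. Same-numbered arrays had correlations of deviations of -0.0161, -0.109 and -0.0116 and so were not treated as pairs.

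The 10 genes and the gene lists were chosen with earlier results of these data known. Named are all 10, up to 3 genes per list with the smallest adjusted p (2, as values, where none passed), 12 listed genes and 5 genes most like DNMT1 and UHRF1; genes outside this are marked. Of the list entries, 11 had no named probe set and are not analysed here, 1 of the 12 among them. Promoter windows came from RefSeq (GRCh38.p14), and all 10 genes matched. Alternatives left out arrays, added a replicate block, changed the variance model, weights, filter, probe sets and scaling.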

Additional observations from a re-analysis of the deposited data

How the results depend on the processing

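UHRF1, HELLS, DNMT1, TET1 and TDG kept direction and call in all 17 alternative fits, with log2 differences of -1.99 to -1.62, -1.97 to -1.67, -0.75 to -0.55, -2.05 to -1.85 and 0.77 to 1.05. The number of the 10 genes called was 5 to 8 when arrays were left out, with 1 to 3 higher and 4 to 5 lower; the lowest count of higher genes, 1, came without replicate 1 or replicate 3 of both groups, and the lowest total, 5, without replicate 1 of both groups. Such fits keep only 4 arrays, and over all genes the calls fell in them too, from 6916 to 5109 without replicate 1 and 5028 without replicate 3 of both groups. Centring on reference genes gave 7 called, and over all genes 6588 higher and 2296 lower. UHRF2 passed in none of the fits and ranged from -0.12 to 0.05 with single arrays left out. It was above 0 without DMSO replicate 3 (0.015) and verteporfin replicates 2 (0.0415) and 3 (0.0479), without replicate 2 (0.0283) or 3 (0.0732) of both groups, and with reference centring (0.15). TET2 minus TET3 ranged from -0.0189 to 0.193 with single arrays left out, turning sign without DMSO replicate 2; the other 4 pairs kept their direction. With replicate number as a block, 8 of the 10 genes passed (3 higher, 5 lower), 6359 of all genes did, and the paired mean of the UHRF1 minus UHRF2 change was -1.77 ± 0.31; the block changed no call among the 10. A cause for these changes was not tested.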
